A study of Arabidopsis thaliana with 12 samples.

Results

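Heat shock factors are transcription factors of a family that plants share with animals and yeast. The 10 members described here were taken by their Arabidopsis gene codes from a table of 24228 genes: HSFA1A, HSFA1D, HSFA2, HSFA3, HSFA4A, HSFA6B and HSFA8 of class A, and HSFB1, HSFB2A and HSFB2B of class B. The choice was made with earlier results of these data known. All 10 were in the table. Of these, 9 had enough counts to be tested and HSFA6B did not. They belong to a family of 21 genes in Arabidopsis thaliana.

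Heat shock factors bind DNA as trimers at heat shock elements, which are inverted repeats of the bases GAA. Class A factors carry an activation domain and switch on chaperone genes such as those of HSP70, HSP90 and the small heat shock proteins, while most class B factors lack that domain and repress transcription. Several members also act outside heat: HSFB1, also called TBF1, binds a TL1 element and is known for moving leaves from growth to defence, and HSFA4A and HSFA8 are linked to hydrogen peroxide and redox signals.

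The 12 libraries came from rosette leaf messenger RNA, 3 in each of 4 groups. The groups were wild type plants of the accession Col-0 after water or after 2'cADPR, and plants with a knockout of PAD4, called pad4 here, after water or after 2'cADPR. The compound 2'cADPR is a cyclic ADP-ribose isomer made by TIR-domain immune proteins, and PAD4 is a partner of EDS1 that signals with helper receptors such as ADR1. The comparison of the groups addresses the action of 2'cADPR and its need for that pathway. The sources used here give no dose, time after treatment, plant age or pad4 allele. They also do not say whether the libraries of a group came from separate plants, so p-values measure only the spread between these libraries, which may be technical.

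PAD4 itself was read first as a check of the labels. Its level was 75.0, 63.9 and 66.8 CPM (counts scaled to 1e6 per library) in the wild type libraries after water and 548, 590 and 518 CPM in those after 2'cADPR. In pad4 it lay between 2.52 and 5.51 CPM over the 6 libraries. The mean of log2(CPM + 0.5) was 5.60 lower in pad4 than in wild type (exact two-sided permutation test over 924 splits, p = 0.00216, the smallest this design allows). Library totals lay between 35.8 and 44.4 M counts. Among the markers read against the labelled tissue, Rubisco and light-harvesting genes summed to 8088 to 18041 CPM, while AP1 of flowers and OLEO1 of seeds had under 10 counts in every library. The other two markers of flower, seed and root were detected in every library. AG of flowers had 14 to 152 counts, with 1.32 CPM on average in wild type and 3.08 CPM in pad4 after water (edgeR adjusted p = 0.00166), and SCR, a root marker also known from the leaf bundle sheath, had 1330 to 2372 counts.

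The stretches just upstream of 4 members are shown because these genes stand for the patterns described below: HSFB1 and HSFA4A, which rose most in wild type, HSFB2B, which rose least among those that rose, and HSFA2, which followed genotype and not treatment. They end 1 base before the annotated start in RefSeq's TAIR10.1 assembly and are written 5′ to 3′ on the strand of the gene. Capitals mark heat shock elements (GAANNTTCNNGAA, or its shorter forms GAANNTTC and TTCNNGAA) and W-boxes (TTGACC or TTGACT, the site of WRKY factors), each on either strand. The stretches are chr2:11135524-11135623 (+) for HSFA2, chr4:10349903-10350082 (-) for HSFA4A, chr4:17440077-17440176 (+) for HSFB1 and chr4:7042254-7042353 (+) for HSFB2B.
HSFA2: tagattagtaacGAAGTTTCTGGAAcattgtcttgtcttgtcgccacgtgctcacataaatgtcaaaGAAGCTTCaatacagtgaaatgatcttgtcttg
HSFA4A: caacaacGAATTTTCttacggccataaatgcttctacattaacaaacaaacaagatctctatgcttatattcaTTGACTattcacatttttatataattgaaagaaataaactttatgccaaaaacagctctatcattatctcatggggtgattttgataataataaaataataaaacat
HSFB1: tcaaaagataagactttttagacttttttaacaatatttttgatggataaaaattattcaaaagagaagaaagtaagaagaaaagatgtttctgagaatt
HSFB2B: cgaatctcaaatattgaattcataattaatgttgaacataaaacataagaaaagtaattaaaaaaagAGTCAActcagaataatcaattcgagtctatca

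Within 250 bases upstream, HSFA2 alone of the 10 members held the long heat shock element, which begins 88 bases before its start; 0.386% of 27443 genes held one there. A shorter form, which the long one contains, was in HSFA2 and HSFA4A and in 16.1% of genes. W-boxes were in HSFA3, HSFA4A and HSFB2B, and in 28.4% of genes. The bases TGACG, read by TGA factors, were in HSFB2A and in 18.6% of genes. No member held GAAGAAGAA, the TL1 element, which 4.13% of genes held. The windows of HSFA1A, HSFA2 and HSFA3 reached into a neighbouring gene, and no window was cut at such a gene. The 100 bases shown above for HSFA2 overlapped no other gene. These matches describe letters in a window and show no binding.

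In wild type leaves, 7 of the 9 tested heat shock factors rose after 2'cADPR and none fell (edgeR's quasi-likelihood test, Benjamini-Hochberg adjusted p under 0.05 over 19652 tested genes). HSFB1 rose 5.30-fold, HSFA4A 3.06-fold and HSFA8 2.45-fold, followed by HSFB2A, HSFA1D, HSFA3 and HSFB2B. Among all tested genes 34.6% rose by the same test, and as many fell. The median log2 change was 0.91 over the tested members and -0.01 over all tested genes. The members were chosen with earlier results of these data known, so these values describe the chosen genes and not the family. Of the 7 further family genes tested, 3 rose and 2 fell, with a median of 0.23. All 3 class B members rose, with a median of 1.21, and so did 4 of 6 tested class A members, with a median of 0.87; the classes were not tested against each other.

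**Figure D1:**
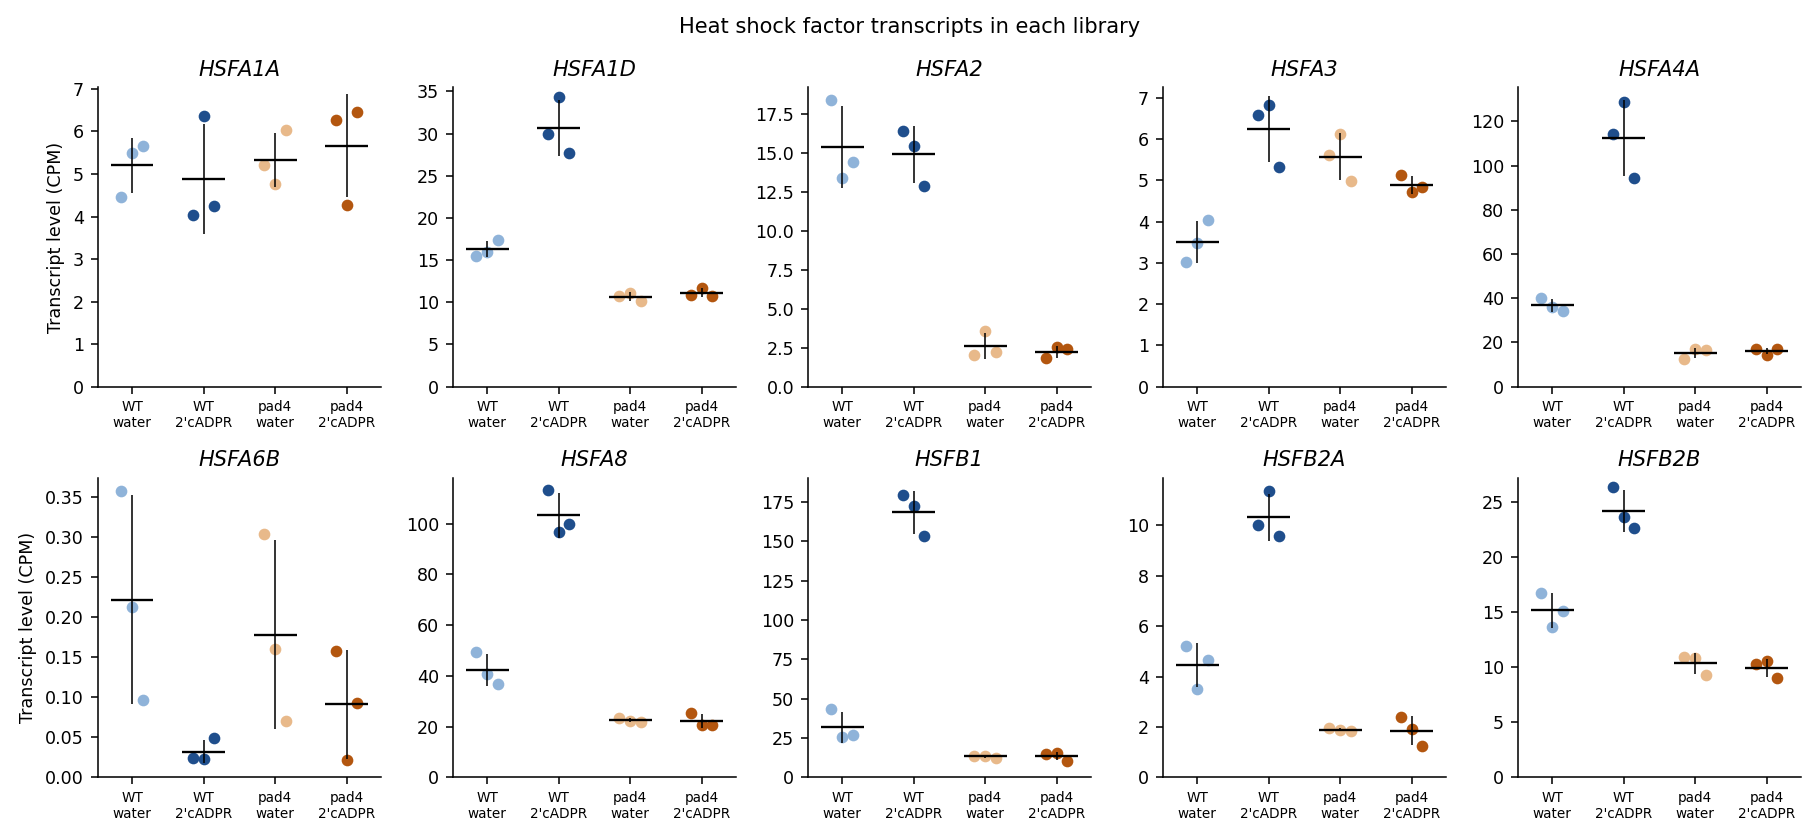
Transcript level in CPM (vertical axis, from 0, a separate scale for each gene) of the 10 heat shock factors in the 4 groups; points are libraries, horizontal bars the mean and vertical lines the SD of 3 libraries. HSFB1 stood between 153 and 179 CPM in wild type after 2'cADPR and at or below 43.1 CPM in the other libraries, while HSFA2 stood at 12.9 CPM or more in wild type and at 3.54 CPM or less in pad4 whatever the treatment.

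HSFB1 (AT4G36990, chr4:17440177-17442151), the class B factor tied to defence, had the largest response. Its level was 43.1, 25.6 and 26.7 CPM in wild type after water. After 2'cADPR it was 179, 172 and 153 CPM. Every treated library lay far above every water library, and the first water library stood apart from the other two. The log2 change was 2.41 ± 0.17 (SE, n = 3 per group; 95% interval 2.04 to 2.78; edgeR adjusted p = 9.05e-09), which was larger than the change of 96.6% of tested genes. Without the first water library it was 2.71.

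HSFB2A (AT5G62020, chr5:24915807-24917643), known from gametophyte development, was a low transcript. It had 5.19, 3.51 and 4.66 CPM after water and 10.004, 11.4 and 9.57 CPM after 2'cADPR in wild type. The groups did not overlap, and the log2 change was 1.21 ± 0.20 (SE; edgeR adjusted p = 5.64e-05). HSFB2B (AT4G11660, chr4:7042354-7044708), which acts with HSFB1 to dampen the heat response, had 16.8, 13.6 and 15.1 CPM after water and 26.3, 23.6 and 22.7 CPM after 2'cADPR. It moved least of the 3, by 0.68 ± 0.11 (SE; edgeR adjusted p = 3.98e-05). The end of HSFB2B overlaps AT4G11670, on the other strand, by 308 bases, and AT4G11670 had 731 to 791 counts after water and 1687 to 2229 after 2'cADPR. Whether counting used strand is not given, so reads in the shared bases cannot be assigned and the value of HSFB2B is less certain.

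Of the class A members, HSFA4A (AT4G18880, chr4:10347479-10349902), linked to oxidative stress, changed most. It had 40.2, 35.8 and 34.3 CPM in wild type after water. After 2'cADPR it had 114, 129 and 94.3 CPM. No treated library came near the water libraries, and the log2 change was 1.61 ± 0.12 (SE; 95% interval 1.35 to 1.87; edgeR adjusted p = 1.53e-08).

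HSFA8 (AT1G67970, chr1:25484449-25486512), whose protein enters the nucleus under oxidative stress, had 49.3, 40.7 and 36.8 CPM after water. It had 113, 96.7 and 100.003 CPM after 2'cADPR. Again the groups stood clear of each other, with a log2 change of 1.29 ± 0.11 (SE; edgeR adjusted p = 4.26e-08).

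HSFA1D (AT1G32330, chr1:11656964-11660471), one of the master activators that start the heat response, had 15.5, 16.0 and 17.3 CPM after water. It had 30.0, 34.3 and 27.7 CPM after 2'cADPR. The water libraries were close together and all below the treated ones (log2 change 0.91 ± 0.09, SE; edgeR adjusted p = 3.69e-07). HSFA3 (AT5G03720, chr5:971142-974326), which DREB2A switches on and which sustains the late heat response, had 3.02, 3.48 and 4.04 CPM after water and 6.59, 6.83 and 5.33 CPM after 2'cADPR. It was low in all libraries and its groups did not overlap (log2 change 0.83 ± 0.15, SE; edgeR adjusted p = 2.05e-04).

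Neither HSFA1A nor HSFA2 passed the test in wild type. HSFA1A (AT4G17750, chr4:9869818-9871646), a second master activator, had 4.45, 5.50 and 5.65 CPM after water and 4.03, 6.37 and 4.24 CPM after 2'cADPR. HSFA2 (AT2G26150, chr2:11135624-11137792), which the master activators induce in heat and which prolongs acquired heat tolerance, had 18.4, 13.4 and 14.4 CPM after water and 16.4, 15.4 and 12.9 CPM after 2'cADPR. In both genes the groups overlapped. The log2 change of HSFA1A was -0.09 (95% interval -0.53 to 0.34; edgeR adjusted p = 0.704). That of HSFA2 was -0.05 (95% interval -0.43 to 0.34; edgeR adjusted p = 0.831).

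HSFA6B (AT3G22830, chr3:8078789-8081059), which links abscisic acid to heat tolerance, was close to the limit of detection. It had 13, 8 and 4 counts in the wild type libraries after water and 1, 1 and 2 counts after 2'cADPR. In pad4 it had 13, 7 and 3 counts after water and 7, 1 and 4 after 2'cADPR. Summed over libraries and scaled to their totals, the level after water was 6.82 times that after 2'cADPR in wild type (exact 95% interval 2.36 to 27.0, counting error only) and 1.97 times in pad4 (0.939 to 4.34). It was left out of the test by the filter on low counts. When all genes were tested its log2 change in wild type was -2.68 (edgeR adjusted p = 0.0303). HSFA6B also passed the filter without the first or the second 2'cADPR library of wild type. It was not called in those fits (edgeR adjusted p = 0.0590 and 0.0582), which differ from the fit of all genes in genes tested and in libraries.

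In pad4 leaves, none of the 9 tested members passed the test of 2'cADPR against water. None had an unadjusted p under 0.05, while 992 of all 19652 tested genes did. DESeq2 and limma called none either. Across all genes edgeR called 0.00509%, which is 1 gene of 19652. The log2 changes of the members lay between -0.21 for HSFA2 and 0.09 for HSFA1A, with a median of -0.02; the median over all genes was -0.004. HSFB1 had 13.6, 13.8 and 12.3 CPM after water and 14.6, 15.7 and 10.6 CPM after 2'cADPR in pad4. The 2 sets overlapped, and the log2 change was 0.04 (95% interval -0.34 to 0.43). HSFA4A had 12.7, 17.0 and 16.4 CPM after water and 17.0, 14.5 and 17.0 CPM after 2'cADPR. These overlapped too, with a log2 change of 0.07 (95% interval -0.20 to 0.34). The widest intervals were those of HSFB2A, -0.50 to 0.44, and HSFA2, -0.67 to 0.26.

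**Figure D2:**
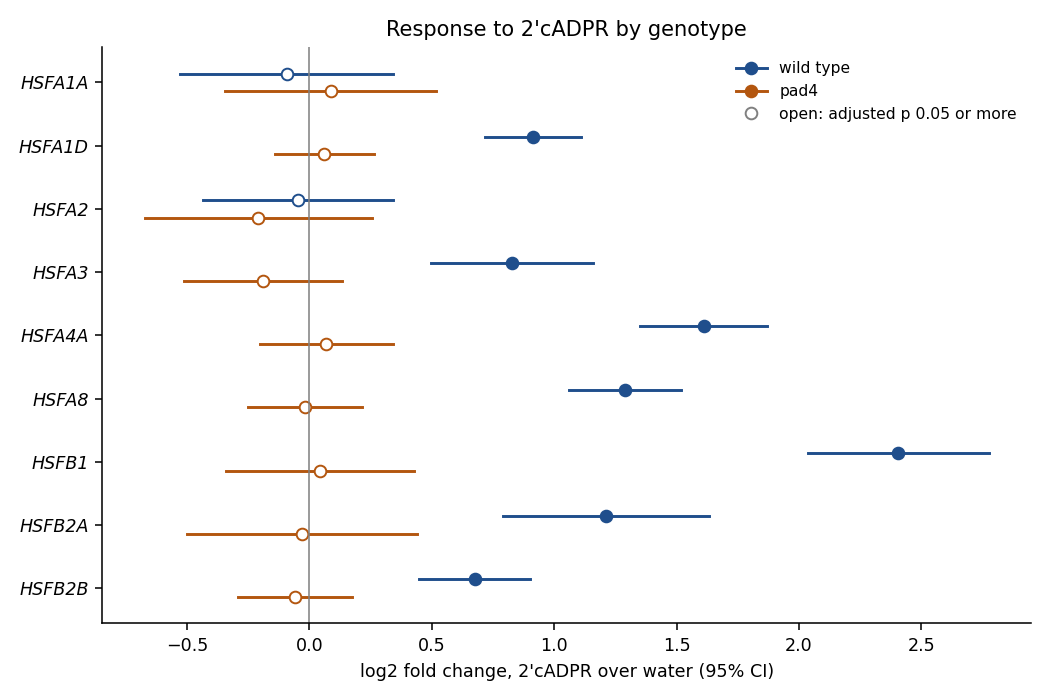
Log2 fold change of 2'cADPR over water (horizontal axis) for the 9 tested heat shock factors in wild type and in pad4; points are edgeR estimates, lines 95% intervals from 3 libraries per group, and open points have an adjusted p of 0.05 or more. All 9 intervals in pad4 include 0, and in wild type those of HSFA1A and HSFA2 do.

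The difference between these responses was tested itself, as the interaction of genotype and treatment. The same 7 members that rose in wild type had a smaller response in pad4 by this test, against 28.2% of all tested genes in that direction. The difference, pad4 minus wild type on the log2 scale, was -2.36 ± 0.25 (SE) for HSFB1 (edgeR adjusted p = 1.18e-06), -1.54 ± 0.17 for HSFA4A (adjusted p = 2.74e-06) and -1.31 ± 0.15 for HSFA8 (adjusted p = 3.62e-06). For HSFB2A, HSFA3, HSFA1D and HSFB2B it lay between -1.24 and -0.73. HSFA2 gave -0.16 (95% interval -0.77 to 0.44; adjusted p = 0.651) and HSFA1A gave 0.18 (-0.43 to 0.79; adjusted p = 0.617). The interaction and the comparisons below use the same libraries as the responses above, so they are not independent of them.

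**Figure D3:**
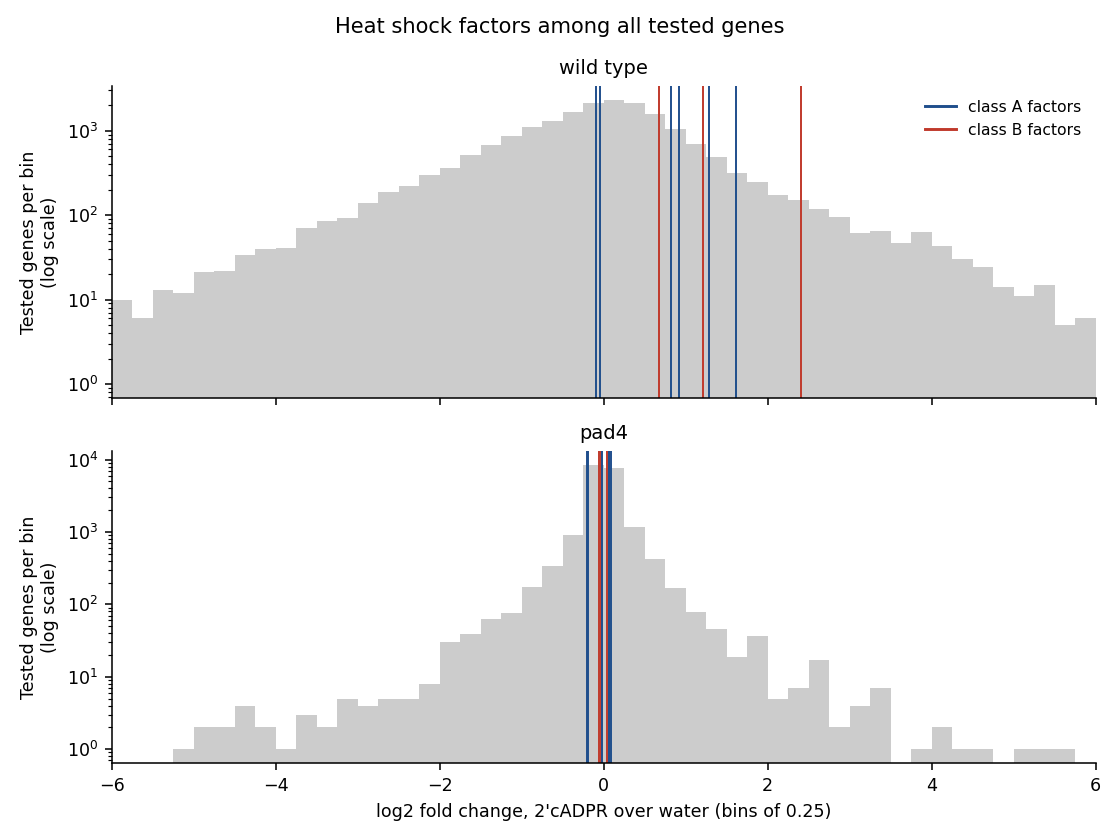
Number of tested genes (vertical axis, log scale) by log2 fold change of 2'cADPR over water (horizontal axis, bins of 0.25) in wild type above and pad4 below, with the tested class A and class B heat shock factors as lines; 71 genes in wild type lie outside the plotted range. In wild type the 7 members that rose lie at 0.68 to 2.41, and in pad4 all 9 lie between -0.21 and 0.09.

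Already after water, pad4 and wild type leaves differed in 8 of the 9 tested members. Lower levels in pad4 were found for 7 (17.5% of tested genes were lower) and a higher level for HSFA3 (11.7% were higher). The median log2 difference was -0.91 over the members and 0.002 over all tested genes. HSFA2 differed most. It had 18.4, 13.4 and 14.4 CPM in wild type and 2.04, 3.54 and 2.21 CPM in pad4. No pad4 library approached the wild type libraries, and the mean in pad4 was 16.9% of that in wild type (log2 difference -2.56 ± 0.20, SE; 95% interval -3.00 to -2.13; edgeR adjusted p = 1.73e-07).

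The other members lower in pad4 after water were those that rose after 2'cADPR in wild type, other than HSFA3. HSFA4A had 41.8% of its wild type level and HSFB1 41.6%, each a log2 difference of -1.26 (edgeR adjusted p = 2.01e-06 and 6.42e-05). HSFB2A had 42.4%, HSFA8 53.2%, HSFA1D 65.7% and HSFB2B 68.2%. For HSFB1 the difference was -0.97 without the first wild type water library, the library that was highest of its group for 7 of the 10 members and for 38.6% of tested genes.

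HSFA3 went the other way. It had 3.02, 3.48 and 4.04 CPM in wild type after water and 5.62, 6.14 and 4.98 CPM in pad4, with no overlap (log2 difference 0.66 ± 0.15, SE; edgeR adjusted p = 0.00430). In pad4 after 2'cADPR it had 5.12, 4.71 and 4.84 CPM. The water libraries of pad4 overlapped with the 2'cADPR libraries of wild type, which had 5.33 to 6.83 CPM. The end of HSFA3 overlaps AT5G03710 on the other strand by 486 bases, and that gene had at most 1 count in any library. Whether counting used strand is not given, so how reads in the shared bases were assigned is not known. HSFA1A was the only tested member not called, with 4.45 to 5.65 CPM in wild type and 5.20, 4.76 and 6.03 CPM in pad4 (log2 difference 0.03, 95% interval -0.40 to 0.47).

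After 2'cADPR, 8 of the 9 tested members were lower in pad4 than in wild type, against 36.8% of all tested genes, with a median log2 difference of -2.22. HSFB1 in pad4 had 8.10% of its wild type level (log2 difference -3.62 ± 0.18, SE; edgeR adjusted p = 9.62e-11), HSFA4A 14.4%, HSFA2 15.1%, HSFB2A 17.9% and HSFA8 21.5%. HSFA1D and HSFB2B had 36.4% and 41.0%. HSFA3 was at the edge of the test, with 78.3% of the wild type level (log2 difference -0.35, adjusted p = 0.0447), and this call was lost in 13 of 20 alternatives, with adjusted p up to 0.142. HSFA1A was again not called (log2 difference 0.21, 95% interval -0.22 to 0.64).

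**Figure D4:**
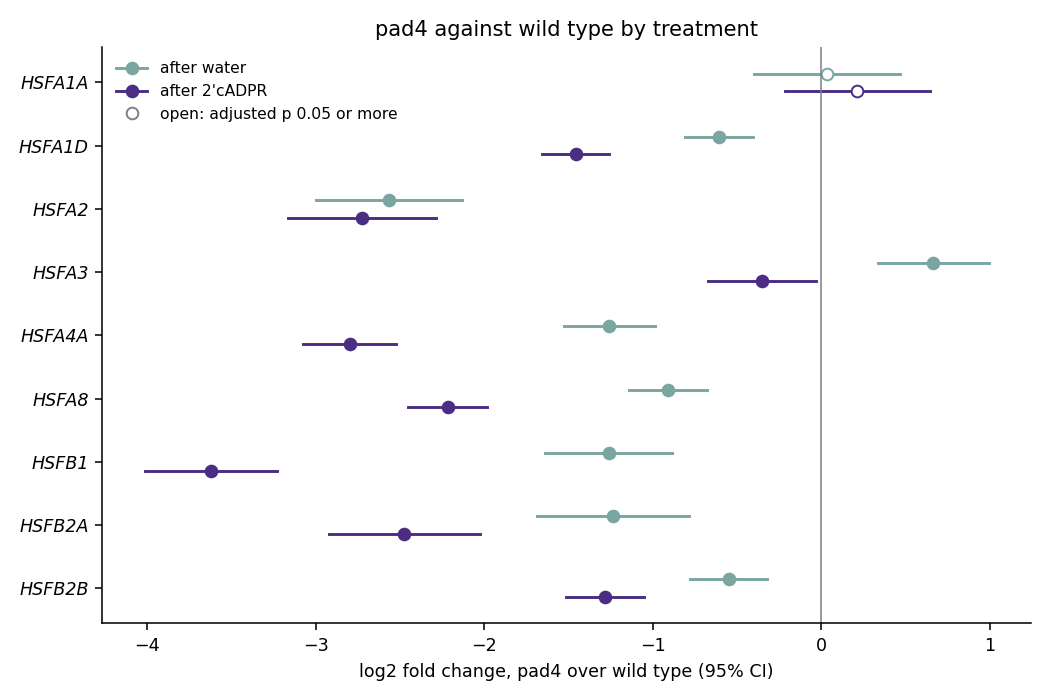
Log2 fold change of pad4 over wild type (horizontal axis) for the 9 tested heat shock factors after water and after 2'cADPR; points are edgeR estimates, lines 95% intervals from 3 libraries per group, and open points have an adjusted p of 0.05 or more. HSFA2 has nearly the same difference at both treatments, -2.56 and -2.73, whereas HSFB1 goes from -1.26 to -3.62 and HSFA3 from 0.66 to -0.35.

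Levels of different genes were compared per length, in FPKM (counts scaled by exon length and library total). In wild type after water HSFA8 was highest at 24.2 ± 4.45 FPKM (SD, n = 3), then HSFB1 at 17.6 ± 6.04 and HSFA4A at 15.4 ± 1.79, whose ranges overlapped with their neighbours. HSFA2 at 8.07, HSFA1D at 7.64 and HSFB2B at 6.57 FPKM followed, again overlapping in turn. HSFA1A, HSFB2A and HSFA3 stood between 1.56 and 3.03 FPKM and HSFA6B at 0.140.

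After 2'cADPR the order in wild type was headed by HSFB1 at 92.4 ± 6.997 FPKM, with HSFA8 at 58.9 ± 5.31 and HSFA4A at 46.8 ± 6.76, and these 3 did not overlap. HSFA2 moved from the fourth place to the sixth with its own level at 7.77 FPKM. In pad4 HSFA8 was first at both treatments, with 13.2 and 13.3 FPKM, and HSFA2 came eighth with 1.41 and 1.23 FPKM.

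The 10 members summed to 86.7 ± 14.5 FPKM in wild type after water, 242 ± 17.9 in wild type after 2'cADPR, 45.6 ± 1.997 in pad4 after water and 46.3 ± 3.05 in pad4 after 2'cADPR (SD, n = 3). HSFB1 made up 19.9% of that sum in wild type after water and 38.2% after 2'cADPR, and 16.5% and 16.9% in pad4. The class B members together made up 30.4%, 44.9%, 29.0% and 29.0% in the same order. The share of HSFA2 was 9.28% in wild type after water and 3.20% after 2'cADPR, and 3.06% and 2.69% in pad4. These are shares of transcript and not of protein.

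Of the 11 further genes of the family, 10 were in the table and 7 were tested. In wild type 3 rose, namely HSFA1B with a log2 change of 0.97, HSFA1E with 0.76 and HSFA4C with 0.73. Another 2 fell, HSFC1 by 1.49 and HSFA7A by 1.69. The median log2 change of the 7 was 0.23. Among all tested genes 34.6% rose and 34.6% fell. HSFA7A is named after its values were seen. With HSFA1D, 3 of the 4 master activators of the HSFA1 group thus rose, beside 34.6% of all tested genes. HSFC1, the class C factor, had 14.4 to 18.2 CPM in wild type after water, 4.89 to 6.35 CPM after 2'cADPR and 13.7 to 22.3 CPM in pad4 over both treatments. None of the 7 was called in pad4 after 2'cADPR (0.00509% of all tested genes were). Between genotypes after water none was called either, while 17.5% of all tested genes were lower in pad4 and 11.7% higher. In both comparisons edgeR gave none of the 7 an unadjusted p under 0.05, and DESeq2 and limma called none. Of all 19652 tested genes 992 had such a p in pad4 after 2'cADPR and 7641 between genotypes after water. By the interaction 3 responses were lower in pad4 and 2 higher, against 28.2% and 29.4% of all tested genes.

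Among chaperones and regulators tied to the heat shock response, 28 of 33 listed genes were tested. In wild type 17 rose and 5 fell, with a median log2 change of 0.56; 34.6% of all tested genes rose and 34.6% fell. Those with the smallest adjusted p were HSC70-3, a cytosolic HSP70 (1.25), HSP70-4 (1.47), HSP90.1, an inducible HSP90 that works with immune receptors (1.75), and the coactivator MBF1C (0.86). HSC70-3 had 1162 to 1348 CPM after water and 2688 to 3442 CPM after 2'cADPR. The 5 that fell, named after their values were seen, were HSP18.2 (-2.36), HSP70B (-0.79), DREB2B (-0.49), the factor-binding inhibitor HSBP (-0.37) and BAG6 (-0.27). BAG6 was at the edge of the test (edgeR adjusted p = 0.0450) and its groups overlapped, at 11.9 to 15.6 CPM after water and 9.77 to 12.7 CPM after 2'cADPR. The number that fell was 4 with DESeq2 and with both limma fits. It was also 4 with edgeR under RLE factors, no filter, only the groups compared and the replicate block. The 5 CPM filter, which left 20 of the listed genes tested, gave 4 too. Over all the alternatives run it was 3 to 5.

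In pad4 none of the 28 was called after 2'cADPR, and DESeq2 and limma called none. An unadjusted edgeR p under 0.05 was found for 3 of the 28, and for 992 of all 19652 tested genes. By the interaction 15 responses were lower in pad4 and 3 higher, against 28.2% and 29.4% of all tested genes. Between genotypes after water 17 were lower in pad4 and none higher, with a median of -0.57, against 17.5% lower and 11.7% higher among all tested genes. HSP90.1 differed by -1.91, HSP70-4 by -1.56, HSC70-3 by -1.41 and MBF1C by -1.13. HSP90.2 and HSP90.3, which are near-identical copies and may share reads, and which are named after their values were seen, rose by 0.58 and 0.43 in wild type after 2'cADPR. Between genotypes after 2'cADPR 18 of the 28 were lower in pad4 and 6 higher (36.8% of all tested genes were lower and 37.4% higher).

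The genes listed as described with TL1 elements and HSFB1 were secretory genes and NPR1 (1.03), which is not secretory and is named for that reason. All 8 listed rose in wild type, as did 34.6% of all tested genes. The median log2 change of the 8 was 1.32. Examples are the endoplasmic reticulum HSP70s BIP2 (1.71) and BIP1 (1.25) and their partners ERDJ3B (1.65) and SDF2 (1.13). BIP2 had 610 to 776 CPM after water and 2026 to 2362 CPM after 2'cADPR. None was called in pad4 after 2'cADPR by edgeR, DESeq2 or limma, and by the interaction all 8 responses were lower there (28.2% of tested genes). All 8 were lower in pad4 after water, with a median of -1.29 (17.5% of tested genes), and all 8 after 2'cADPR, with a median of -2.67 (36.8% of tested genes). BIP1 and BIP2 are near-identical and may share reads.

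**Figure D5:**
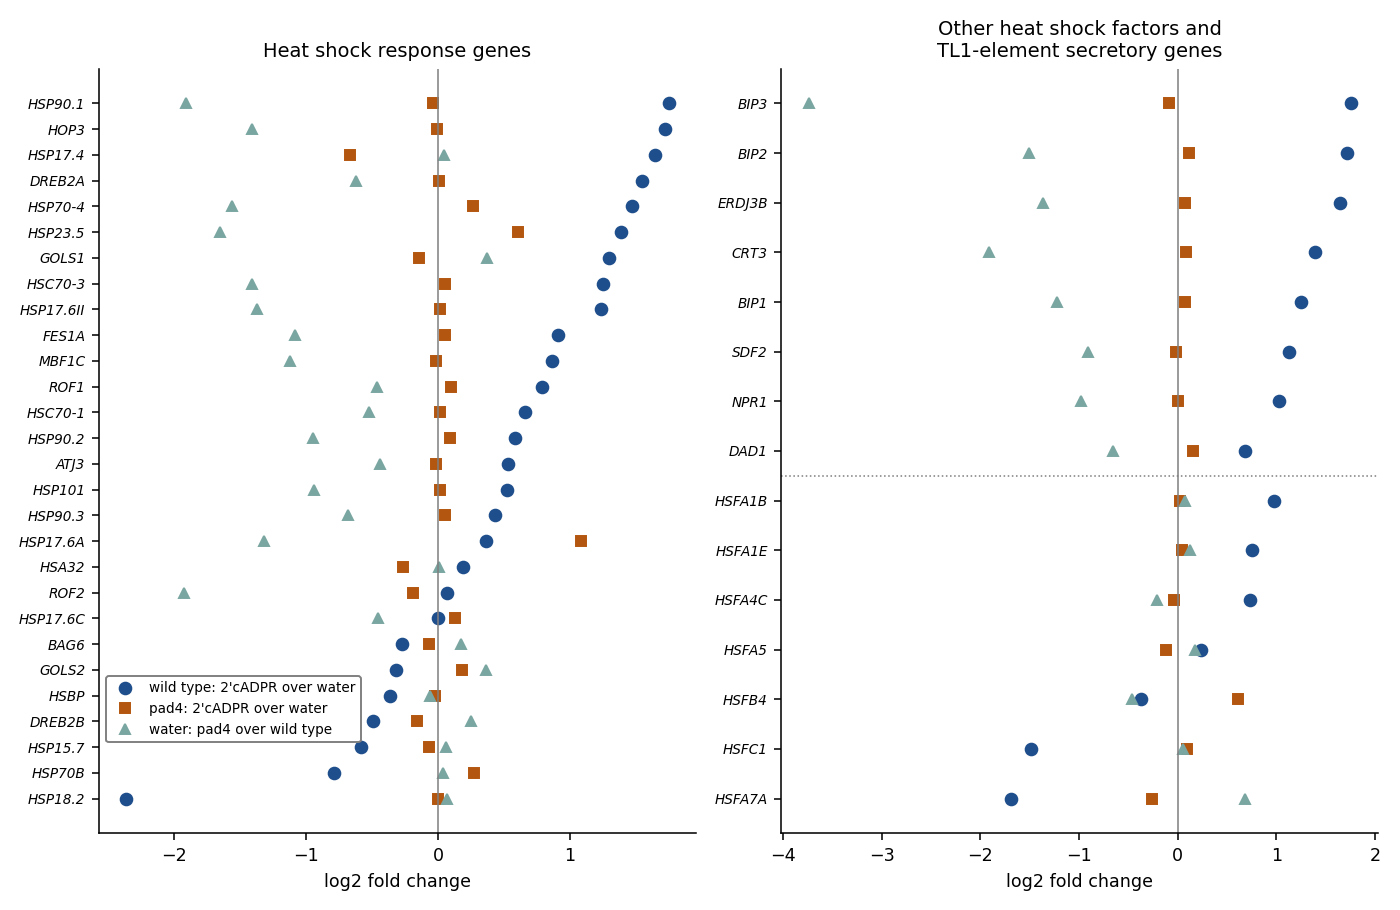
Log2 fold change (horizontal axis), with heat shock response genes on the left. On the right are TL1-element genes, secretory except NPR1, above the dotted line and other heat shock factors below it. Circles are 2'cADPR over water in wild type, squares the same in pad4, and triangles pad4 over wild type after water. Points are edgeR estimates whether or not they passed the test. All 8 TL1-element genes lie right of 0 in wild type and left of 0 between genotypes. The heat shock response genes run from -2.36 to 1.75 in wild type.

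For each tested member the 3 genes whose profile over the 12 libraries was most like its own were sought among 14063 genes, by the root-mean-square difference of centred log2 CPM. The libraries fall into the study's groups, so many genes share such a profile, and the distances are a description. HSFB1 was most like NHL3, AT2G41835 and GSTF6, at distances of 0.149 to 0.176 beside its own spread of 1.49. HSFA4A was most like DA1, PUX2 and UTR2 (0.0946 to 0.121, own spread 1.16). HSFA1D was most like GATA26, Hop2 and AT5G11560 (0.0608 to 0.0702, own spread 0.596). HSFA2 was most like AT4G36150, AT1G72910 and AT2G41090 (0.201 to 0.253, own spread 1.24).

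HSFA8 was most like AT1G29310, AT3G51980 and AT2G04400 (0.101 to 0.107, own spread 0.904). HSFB2A was most like AT1G17610, AT1G07220 and CST (0.168 to 0.173, own spread 0.930). HSFB2B was most like AT5G04070, SAR1B and LCV2 (0.0885 to 0.0912, own spread 0.512). HSFA3 was most like PAP18, PAH1 and IDD4 (0.0995 to 0.157, own spread 0.306). The nearest genes to HSFA1A, whose own spread was 0.218, were AT3G24480, AT4G10925 and AT3G26030 at 0.125 to 0.132, distances that are large beside that spread.

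Several markers of leaf cell types changed with treatment in wild type, where 34.6% of all tested genes rose and 34.6% fell. Of the epidermis markers 4 of 5 fell, all but PDF1, and of the mesophyll markers RBCS1A and CAB3 fell while LHCB2.1 was not called (log2 change 0.03). Among guard cell markers KAT1 rose, MYB60 fell, and SLAC1 and FAMA were not called; among vascular markers SUC2 fell, and APL and XCP1 were not called. The 5 epidermis markers summed to 1264 to 1353 CPM in wild type after water, 432 to 585 CPM after 2'cADPR and 931 to 1258 CPM in pad4 over both treatments. The 3 mesophyll markers summed to 13668 to 18041, 8088 to 9018 and 13551 to 15444 CPM in the same order, most of it RBCS1A. Vascular markers (3 genes) summed to 183 to 196 CPM, 163 to 168 CPM and 163 to 182 CPM, and guard cell markers (4 genes) to 44.1 to 52.4 CPM, 47.3 to 61.5 CPM and 54.2 to 61.9 CPM, with the guard cell sums of wild type overlapping between treatments. The part of these shifts in the changes of the heat shock factors was not tested, and in bulk leaf RNA fewer cells of a type cannot be told apart from less RNA per cell.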

How the data were processed

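Messenger RNA of 12 rosette leaf libraries was extracted with TRIzol and prepared with a SMARTER kit, per the labels' protocols. The submitters' processing notes name fastp, HISAT, HTSeq and the build TAIR10; versions, settings and strand are not given there. The deposited tables hold raw counts per gene and FPKM that the authors derived from them. The 24 files per sample equalled their table columns.

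Counts were tested with edgeR 4.0.16 in R 4.3.3: filterByExpr by group (minimum count 10; 19652 genes tested), TMM scaling, 1 mean per group in a quasi-likelihood model of the 12 libraries, and two-sided F-tests. Calls needed a p under 0.05 after Benjamini-Hochberg adjustment across the genes tested. CPM are scaled to TMM-adjusted totals. The steps were tested on simulated data. Alternatives were DESeq2 1.42.0, RLE factors, no filter, a filter of 5 CPM in 3 libraries, only the groups compared, the replicate number as a block, limma 3.58.1 on log2(FPKM + 1) and log2(FPKM + 0.1), and each library left out. Exact Poisson-based intervals cover counting error only.

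The members and the gene lists (82 genes, 78 in the table) were chosen with earlier results of these data known. Named genes are the members, PAD4, up to 4 genes of each list with the smallest adjusted p in a comparison, and 3 nearest profiles per member among genes with at least 5 CPM on average; others are said to be named after their values were seen. Coordinates and sequence are from RefSeq's TAIR10.1, whose exon lengths matched those implied by the FPKM within 1% for all 19382 nuclear genes compared. The genes HSFA9, HSP22, HSP26.5 and APX2 of the lists were not analysed here.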

Additional observations from a re-analysis of the deposited data

Results flagged for a closer look

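For 7 members the response to 2'cADPR differed between the genotypes by a test of the difference itself (edgeR interaction, pad4 response minus wild type response, log2 scale); 28.2% of all tested genes differed in that direction and 29.4% in the other. The values were -2.36 for HSFB1, -1.54 for HSFA4A, -1.31 for HSFA8, -1.24 for HSFB2A, -1.02 for HSFA3, -0.85 for HSFA1D and -0.73 for HSFB2B. All 7 also differed between the genotypes after water, HSFA3 with the higher level in pad4 and the other 6 with the lower. Of all tested genes 11.7% were higher and 17.5% lower in pad4 after water.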

How the results depend on the processing

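Over all alternatives run, called values of the 9 tested members and PAD4 kept their direction, and members and PAD4 stayed called or not called as before in the 5 comparisons, except HSFA3 between genotypes after 2'cADPR, whose log2 difference lay between -0.47 and -0.20 and was not called in 13 of 20 alternatives (the cause was not tested). The count of other heat shock factors called between genotypes after water was 0, and 1 when the first wild type water library was left out. Of all tested genes 5744 of 19652 and 4830 of 19926 were called in these 2 fits. HSFA6B entered the test only where the filter allowed it. For 2'cADPR against water in wild type its edgeR adjusted p was 0.0126 to 0.0590 when libraries were left out and 0.0303 with no filter. DESeq2 gave an adjusted p of 0.0315 for that comparison. HSFA6B was not called in any other comparison. Same-numbered libraries of different groups correlated by -0.151 to 0.138 in their deviations, and those with unlike numbers by -0.200 to 0.234. The labels do not say whether the numbers pair libraries, and with 3 libraries per group these correlations cannot decide it. With the replicate block, 7 members were called in wild type, 0 in pad4, 7 for the interaction, 8 after water and 7 after 2'cADPR, where the fit with no block called 8. Low counts limit HSFA6B most.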

Other observations

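The co-chaperone ROF2, known to act with HSFA2 in heat, had values like those of HSFA2; it was singled out after its values were seen. ROF2 had 24.7 to 38.0 CPM in wild type after water, 25.1 to 36.2 CPM in wild type after 2'cADPR, 6.61 to 9.997 CPM in pad4 after water and 6.04 to 7.94 CPM in pad4 after 2'cADPR. Its log2 change in wild type was 0.07 (edgeR adjusted p = 0.738), and its difference between genotypes after water was -1.93 (adjusted p = 1.73e-06).

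Small heat shock protein genes did not share one course in wild type after 2'cADPR. HSP17.4 rose by 1.65 on the log2 scale, HSP23.5 by 1.39 and HSP17.6II by 1.24 (edgeR adjusted p at most 0.00617). Their levels stayed low. HSP17.4 had 0.691 to 0.879 CPM after water and 2.28 to 2.65 CPM after 2'cADPR. HSP17.6II had 1.78 to 2.23 and 3.92 to 5.77 CPM, and HSP23.5 had 2.87 to 4.53 and 8.14 to 10.7 CPM. HSP18.2 fell by 2.36 (adjusted p = 0.00338), from 0.479 to 0.986 CPM after water to 0.0716 to 0.163 CPM after 2'cADPR. HSP17.6A (0.37), HSP15.7 (-0.59) and HSP17.6C (adjusted p = 1) were not called, and HSP21 and HSP23.6, with at most 8 counts in a library, were not tested. These genes were named after their values were seen.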
